A study of Saccharomyces cerevisiae with 35 samples.

Results

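The comparison is between a budding yeast strain with an extra copy of chromosome XVI (disome XVI) and its euploid parent F45, in colonies grown on solid medium. It was drawn from the first of the sequencing batches of the series: all 4 F45 libraries and all 4 disome XVI libraries of that batch, which are 8 of the 35 libraries in all. Genes were chosen by position alone, and the 5451 open reading frames (ORFs) tested outside chromosome XVI were described apart from the 472 tested on it, of 511 ORFs that the table lists there. The first set asks which transcripts differ though their own gene dose does not, and the second asks whether each copy on the extra chromosome is read as in the euploid.

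F45 is a MATa haploid that carries ho::hphMX6 and SPS2:EGFP:natMX4 and an unmapped serine auxotrophy, and disome XVI shares all of these. The disome is 1 derived strain, and its extra chromosome XVI came from an error in mitosis, which leaves no allelic difference between the copies. On YPD with glucose F45 makes ruffled ("fluffy") colonies and disome XVI makes smooth ones. RNA was taken after 4 days from several pooled colonies a library, so 4 libraries are 4 pools of 1 strain. No source states that the pools came from separate starting cultures, so p-values measure the spread between pools, which may be technical. For edgeR that spread was estimated over all 24 first-batch libraries in 6 groups. Library totals were 8899951 to 17224177 counts in F45 (median 12579556) and 8029723 to 23575279 in disome XVI. Another group, disome XV, has the same alleles with an extra chromosome XV in place of XVI, smooth colonies and 4 libraries, and serves below for the test of what differs between the 2 disomes.

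Cells with an extra chromosome carry every gene on it at a higher dose. Yeast transcripts usually follow gene dose, and proteins and transcripts made elsewhere in the genome can shift with them. Complex yeast colonies depend on the flocculin Flo11, a glycoprotein of the cell surface that lets cells stick to each other and to the agar, and whose promoter is read by the filamentation MAPK pathway, by cAMP and protein kinase A, and by several repressors. Colonies also hold cells in different states of nutrition, from dividing cells to cells that have turned to stress protection and respiration as glucose runs out.

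Chromosome XVI itself was read at close to 2 times the euploid level. Its median ORF, among 456 ORFs with a median of 1 CPM or more in F45 and a variance of log2 levels under 3 in either group, was at 1.98 times the F45 mean, and single disome libraries gave medians of 1.97 to 2.00. The other 15 chromosomes gave 0.951 to 1.04 in single disome XVI libraries, so no library of either group went against its label. CPM here and below means counts per 1000000 counts. The total used for it left out both chromosomes that are ever disomic here, and was scaled by TMM (a trimmed mean of ratios between libraries). DIG1, which encodes an inhibitor of the filamentation regulators Ste12 and Tec1 and lies on the extra chromosome (chromosome XVI, 462481 to 463839), was at 66.6, 71.5, 63.5 and 72.0 CPM in the F45 libraries and 143, 125, 149 and 129.6 CPM in the disome XVI libraries. The groups did not overlap, and without adjustment for copies the difference was 1.00 ± 0.06 on the log2 scale (SE, n = 4 and 4; edgeR quasi-likelihood test, adjusted p = 7.35e-14; exact permutation test, two-sided, p = 0.0286, the smallest that 4 against 4 allows). Per copy DIG1 did not pass the test (log2 difference 0.0032 ± 0.06, edgeR adjusted p = 0.972).

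Outside chromosome XVI, FLO11 and genes of stress protection, phosphate and nitrogen supply, respiration and mating were lower in disome XVI, and genes for ribosomal proteins, amino acid synthesis, daughter cell separation and some cell wall mannoproteins were higher. With edgeR's quasi-likelihood test and a Benjamini-Hochberg adjusted p of 0.01, 1464 of the 5451 ORFs were higher and 1339 lower. Of these, 58 were more than 2-fold higher and 303 more than 2-fold lower. Over all 5923 tested ORFs, chromosome XVI included per copy, the same rules called 26.7% higher and 25% lower, and 1.1% more than 2-fold higher and 5.66% more than 2-fold lower. Scaled to the total counts of each library, the split outside chromosome XVI became 1046 higher and 1663 lower, so 38.6% of the calls were higher in place of 52.2%. Past 2-fold that scaling gave 46 ORFs higher and 347 lower.

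The largest decrease was that of SPS100, a gene of spore wall maturation (chromosome VIII, 378219 to 379199), at 1208, 1262, 997 and 1219 CPM in F45 and 10.2, 10.7, 12.3 and 14.0 CPM in disome XVI. The groups were apart by a factor of 100.3 (log2 difference -6.65 ± 0.18, edgeR adjusted p = 1.05e-21). FLO11 (chromosome IX, 389572 to 393675) had the third largest after SHH3, with 16009, 15546, 16966 and 17223 CPM in F45. In disome XVI it was at 236, 178, 541 and 177 CPM, with replicate 3 above the rest and still far below F45. The log2 difference of FLO11 was -5.85 ± 0.27, a fall of 57.8-fold (edgeR adjusted p = 1.53e-16; exact permutation test, two-sided, p = 0.0286). Leaving out disome XVI replicate 3 made it -6.38.

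SHH3, a mitochondrial membrane protein like a subunit of succinate dehydrogenase, fell by a factor of 73.3 (106 to 138 CPM in F45 and 1.29 to 2.41 CPM in disome XVI). MEP2, the high-affinity ammonium permease, went from 2469, 2805, 2509 and 2441 CPM to 128, 99.4, 119.9 and 114 CPM, a log2 difference of -4.47 ± 0.15 (edgeR adjusted p = 1.25e-19). Lack of overlap between the groups was a condition for this ranking, so it is no further result for either gene. PDC6, a minor pyruvate decarboxylase, fell 20.8-fold. NFG1, a negative regulator of filamentous growth, fell 26.0-fold from 154, 161, 188 and 203 CPM to 5.19, 4.27, 11.5 and 2.99 CPM, and without disome XVI replicate 3, its highest disome library, the log2 difference was -5.36 in place of -4.70. The other 4 of the 10 largest decreases were YDL218W, YMR244W, ANS1 and ICS2, by 20.8- to 54.6-fold.

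**Figure D1:**
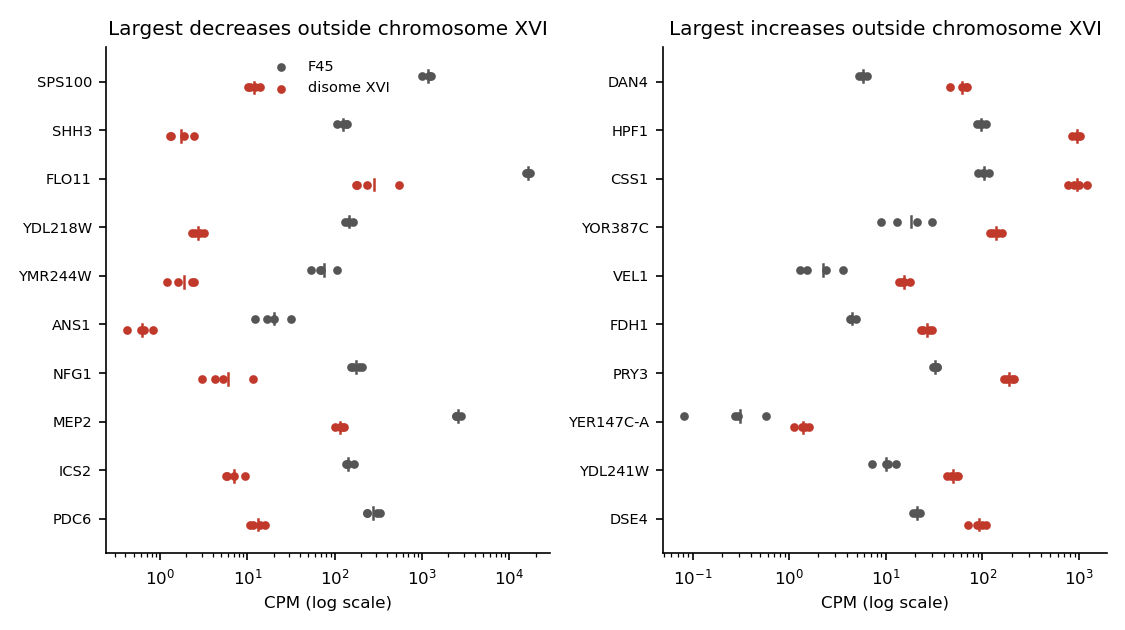
CPM (log axis) of the 10 largest decreases and the 10 largest increases outside chromosome XVI, with a point for each of 4 F45 libraries (grey) and 4 disome XVI libraries (red) and a bar at each mean. Genes with overlapping groups were not eligible, and FLO11 is at 15546 CPM or more in every F45 library and at 541 CPM or less in every disome XVI library.

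Increases were smaller and led by proteins of the cell wall. DAN4, a mannoprotein best known from anaerobic cells (chromosome X, 712255 to 715740), was at 5.22, 6.36, 5.65 and 5.78 CPM in F45 and 67.2, 61.1, 69.9 and 46.4 CPM in disome XVI, a 10.6-fold rise (log2 difference 3.41 ± 0.22, edgeR adjusted p = 2.58e-13). HPF1, a mannoprotein that prevents haze in wine, rose 9.72-fold from 94.1, 109, 99.7 and 88.0 CPM to 854, 983, 937 and 1033 CPM. CSS1 shares sequence with HPF1 and rose 9.36-fold, and since the authors did not filter reads on mapping quality the split of reads between them is uncertain. PRY3, a wall protein of the CAP family, rose 5.82-fold, and DSE4, a glucanase made in daughter cells, rose 4.36-fold from 19.3, 21.0, 20.4 and 22.7 CPM to 71.2, 86.9, 98.3 and 109 CPM.

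YOR387C and VEL1, near-identical genes that respond to zinc supply, rose 7.57- and 7.08-fold, with reads that may be shared between them. YOR387C was at 8.85 to 29.7 CPM in F45 and 119 to 159.6 CPM in disome XVI, with the wider spread in the euploid. FDH1, formate dehydrogenase, lies beside YOR387C near the right end of chromosome XV and rose 5.90-fold (4.25 to 4.93 CPM in F45 and 22.9 to 30.0 CPM in disome XVI). The remaining 2 of the 10 largest increases were YDL241W (4.88-fold) and the short ORF YER147C-A, which had only 11 reads over the 4 F45 libraries against 71 in disome XVI.

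Stress protection genes were mostly lower. In the general stress response, the set of genes that Msn2 and Msn4 turn on when growth slows, 40 of 48 members tested fell and 1 rose, with a median log2 difference of -0.78 beside 0.02 for all tested ORFs. CTT1, the cytosolic catalase (chromosome VII, 654634 to 656322), was at 2658, 2884, 2474 and 2555 CPM in F45 and 244, 189, 226 and 211 CPM in disome XVI (log2 difference -3.60 ± 0.14, edgeR adjusted p = 7.82e-18). SIP18, a hydrophilin of desiccation tolerance, fell 16.9-fold from 1393, 1589, 1413 and 1319 CPM to 88.5, 91.2, 87.8 and 69.9 CPM. GND2, a minor 6-phosphogluconate dehydrogenase, fell 18.6-fold, and GRE1, on chromosome XVI, is given below. The summed level of the 48 genes was 53111 to 58486 CPM in F45 and 28813 to 32515 CPM in disome XVI, with no overlap. Summed levels, here and below, were not adjusted for copies of chromosome XVI. In these bulk samples fewer cells in a state and less RNA per cell in that state cannot be told apart, here or in any list below.

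The promoters of CTT1 and SPS100 are shown because both genes fell by over 10-fold and both hold the stress response element AGGGG, the site of Msn2 and Msn4, within the 250 bases before the start codon. Capitals mark the element, which here reads CCCCT on the printed strand, and each run ends 50 bases into the ORF. They were read from the RefSeq R64 assembly, CTT1 from the plus strand (chrVII:654384-654683) and SPS100 from the minus strand (chrVIII:379150-379449).
CTT1: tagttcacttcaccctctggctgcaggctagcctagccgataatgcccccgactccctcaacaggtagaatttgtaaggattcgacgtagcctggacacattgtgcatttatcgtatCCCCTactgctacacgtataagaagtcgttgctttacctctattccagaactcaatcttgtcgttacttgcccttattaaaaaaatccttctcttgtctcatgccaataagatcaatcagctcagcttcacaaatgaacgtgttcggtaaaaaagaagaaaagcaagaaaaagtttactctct
SPS100: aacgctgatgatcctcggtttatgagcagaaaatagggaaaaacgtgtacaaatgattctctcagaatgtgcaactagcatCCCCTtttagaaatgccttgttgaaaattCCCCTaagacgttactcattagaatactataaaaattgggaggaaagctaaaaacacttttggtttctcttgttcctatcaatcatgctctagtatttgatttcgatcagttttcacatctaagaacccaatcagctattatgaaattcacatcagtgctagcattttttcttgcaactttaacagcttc
In CTT1 the element starts 133 bases before the start codon, and in SPS100 the 2 elements start 169 and 140 bases before it. Searched on both strands in windows of 300 bases, AGGGG was present in 26 of 48 general stress promoters (54.2%) and in 22% of all 5867 ORF promoters that could be read. Of the 26 genes with it 23 fell, and of the 22 without it 17 fell and 1 rose, so most members fell whether or not the window held it.

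Other lists of resting and starved cells fell with it. Of 19 stationary phase genes 15 fell and 0 rose, with a median of -0.72, and UBI4, the polyubiquitin gene, fell 2.01-fold. Trehalose and glycogen genes had 13 of 23 lower and 4 higher. TSL1, a subunit of trehalose synthase, fell 2.16-fold (364 to 469 CPM in F45 and 158 to 210.3 CPM in disome XVI), and PIG2, a likely partner of a protein phosphatase that acts on glycogen synthase, rose 2.11-fold (74.1 to 80.1 CPM in F45 and 146 to 175 CPM in disome XVI). Among heat shock proteins and chaperones 19 of 40 fell and 5 rose (2 under scaling to total counts), and SSA4, an inducible Hsp70, fell from 1839, 1804, 1695 and 1605 CPM to 528, 492, 454 and 418 CPM. SSE2 and SIS1, a nucleotide exchange factor and an Hsp40, fell 2.78- and 2.05-fold. Proteasome genes moved less, with 11 of 38 lower (28.9%, near the 25% of all ORFs) and 6 higher. Among the lower was RPN4, their transcriptional activator, which fell 1.81-fold. Under scaling to total counts 20 proteasome genes were lower.

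Respiration and use of carbon sources other than glucose were lower too. Of 39 genes of the TCA cycle, glyoxylate cycle and gluconeogenesis 32 fell and 2 rose, with a median of -0.76. MLS1, malate synthase of the glyoxylate cycle, was at 2622, 2411, 2248 and 2292 CPM in F45 and 825, 436, 638 and 596 CPM in disome XVI (log2 difference -1.94 ± 0.20, edgeR adjusted p = 3.04e-09). ICL1, isocitrate lyase, and MDH2, the cytosolic malate dehydrogenase, fell 3.11- and 3.45-fold, and SIP4, an activator of gluconeogenic genes, fell 4.06-fold. Disome XVI replicate 2 was the lowest library for MLS1, ICL1, MDH2 and SIP4, and F45 was above every disome library for each of them.

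In the respiratory chain and ATP synthase 32 of 45 members fell and 1 rose, with a median of -0.45. NDE2, an external NADH dehydrogenase, fell 5.17-fold and CYB2, the lactate dehydrogenase of mitochondria, 3.82-fold (644 to 964 CPM in F45 and 176 to 233 CPM in disome XVI), while RIP1 and QCR10 of complex III fell 1.86- and 1.87-fold. The CCAAT box read by the Hap complex was found in 35 of 44 promoters of this list (79.5%) and in 43.8% of all promoters. Falls were seen in 26 of these 35 genes and in 5 of the 9 without the box, and rises in 1 and 0. Peroxisomal fatty acid oxidation had 9 of 25 genes lower (36%, beside 25% of all ORFs) and 0 higher, with 16 lower under scaling to total counts. The largest fall of that list was -1.21 on the log2 scale, and 2 of its genes fell past 2-fold. CTA1, the peroxisomal catalase, had a smaller fall of 1.74-fold.

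Hexose transporters and glucose sensors had 17 of 29 lower and 4 higher. HXT5, a transporter of slowly growing cells, fell from 2099, 2036, 1777 and 1885 CPM to 395, 254, 341 and 291 CPM, and HXT2, of high affinity, fell 2.86-fold. GAL2, the galactose permease, rose 2.75-fold at low levels (1.79 to 2.74 CPM in F45 and 6.18 to 8.15 CPM in disome XVI). Reads of the HXT genes may be shared within that family. Glycolysis and fermentation had 9 of 31 higher and 10 lower (29.0% and 32.3%, near the 26.7% and 25% of all ORFs). Its 4 largest changes were falls. PDC6 is given above, ALD3 and ALD2, neighbouring cytosolic aldehyde dehydrogenases, fell 11.0- and 3.29-fold, and PYK2, the minor pyruvate kinase, fell 2.58-fold. ADH1, the main alcohol dehydrogenase of fermentation, rose by 0.85 on the log2 scale.

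The phosphate regulon, which Pho4 turns on when phosphate is short, had 19 of 27 members lower and 1 higher, with a median of -0.60. PHO89, a sodium phosphate cotransporter (chromosome II, 796798 to 798522), was at 211, 192, 171 and 189 CPM in F45 and 14.7, 9.33, 11.8 and 8.66 CPM in disome XVI (log2 difference -4.07 ± 0.15, edgeR adjusted p = 2.43e-18). PHO5, the secreted acid phosphatase, fell 12.3-fold from 884, 943, 873 and 879.8 CPM to 85.5, 52.6, 82.0 and 71.5 CPM. PHO84, the high-affinity phosphate transporter, fell 2.90-fold, with 2713, 2904, 2821 and 2889 CPM in F45 and 1035, 878, 1134 and 856 CPM in disome XVI. All these groups were free of overlap.

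SPL2, which represses low-affinity phosphate uptake, and PHM6 fell 6.65- and 6.74-fold. The promoter of SPL2 is shown as the member of the regulon among its 4 largest decreases that holds the Pho4 site CACGTG, in capitals, in this window. It was read from the minus strand of the RefSeq R64 assembly (chrVIII:375051-375350) and ends 50 bases into the ORF.
SPL2: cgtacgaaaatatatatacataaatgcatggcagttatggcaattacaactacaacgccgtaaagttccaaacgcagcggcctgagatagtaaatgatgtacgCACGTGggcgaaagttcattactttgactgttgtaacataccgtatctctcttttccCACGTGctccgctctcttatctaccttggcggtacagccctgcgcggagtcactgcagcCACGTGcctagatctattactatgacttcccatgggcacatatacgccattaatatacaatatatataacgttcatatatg
The 3 sites start between 147 and 31 bases before the start codon. CACGTG was in 6 of 27 promoters of the list (22.2%) and in 2.97% of all promoters. Falls were seen in 4 of the 6 genes with it and 15 of the 21 without it, and rises in 1 and 0. The promoters of PHO89, PHO5 and PHM6 did not hold these letters in this window.

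MEP2 was 1 of many nitrogen supply genes that were lower. Of 25 tested genes under nitrogen catabolite repression 17 fell and 1 rose, with a median of -0.76. GAP1, the general amino acid permease, fell from 283, 325, 289.8 and 300.2 CPM to 53.3, 38.6, 45.8 and 46.4 CPM, a 6.53-fold fall. UGA4, a GABA permease, and PUT1, proline oxidase, fell 5.86- and 3.96-fold. Amino acid synthesis went the other way in number, with 35 of 62 genes higher and 8 lower and a median of 0.33. SER2, the last enzyme of serine synthesis, rose 2.37-fold, from 40.0, 47.8, 49.5 and 55.5 CPM to 102, 117, 116 and 122 CPM, and both strains carry the serine auxotrophy. The larger decreases were CPA1 of arginine synthesis, 2.95-fold, and the glutamate dehydrogenases GDH1 and GDH3, 2.00- and 1.81-fold.

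Sulfate assimilation and methionine genes were divided, with 14 of 33 higher and 11 lower (42.4% and 33.3%, beside 26.7% and 25% of all ORFs). MET6, methionine synthase, rose 2.06-fold (671 to 775 CPM in F45 and 1334 to 1635 CPM in disome XVI). The transporters YCT1, for cysteine, SUL1, for sulfate, and MUP3, for methionine, fell 3.71-, 2.99- and 2.06-fold. Thiamine synthesis had 13 of 24 lower and 2 higher, led by THI4 with 31.3, 30.2, 23.9 and 25.5 CPM in F45 and 5.65, 6.51, 6.39 and 5.23 CPM in disome XVI. THI11, THI12 and THI13 fell 2.54- to 3.02-fold, but their sequences are nearly identical and reads could have been split among them.

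Metal genes were mixed. In the zinc regulon of Zap1 6 of 17 rose and 4 fell (35.3% and 23.5%, near the 26.7% and 25% of all ORFs). Besides YOR387C and VEL1, ZPS1, a wall protein of zinc-starved cells, rose 2.44-fold. IZH1, a membrane protein of zinc homeostasis, fell 3.16-fold (856 to 1106 CPM in F45 and 290.2 to 343 CPM in disome XVI). The core of the zinc response element, CCTTNAAGG, was in 3 of 17 promoters of the list (17.6%) and in 0.443% of all. These were ZRT1, ZRC1 and ZRG17, of which 1 rose and 0 fell. Of the 14 without it 5 rose and 4 fell. The iron regulon had 8 of 27 higher (29.6%, near the 26.7% of all ORFs) and 10 lower (37.0%, beside 25%), with 5 higher under scaling to total counts. ENB1, which takes up an iron siderophore, rose 2.27-fold, FIT3, a mannoprotein that retains siderophores, rose 1.92-fold, and HMX1, heme oxygenase, fell 2.98-fold.

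FLO11 was not alone among adhesion genes. Of 9 flocculins and adhesion genes 5 fell and 0 rose: FLO11, NFG1, FLO10, BSC1 and AGA1, an anchor of the mating agglutinin (log2 difference -0.75). FLO10, a flocculin of the same kind, fell from 226, 249, 320.1 and 306 CPM to 26.9, 23.7, 36.8 and 26.0 CPM (log2 difference -3.26 ± 0.13, edgeR adjusted p = 8.44e-18), and BSC1, which resembles FLO11, fell 4.13-fold. The genes of this family hold repeats, so their counts are uncertain where reads match several members. PWR1, a noncoding RNA that lies upstream of FLO11 (chromosome IX, 395999 to 396939), fell 47.8-fold from 21.6, 24.5, 18.9 and 19.7 CPM to 0.648, 0.289, 0.464 and 0.299 CPM, with only 22 reads over the disome XVI libraries.

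The transcription factors that act on FLO11 had 11 of 16 lower and 1 higher. RME1, named as a repressor of meiosis and an activator of FLO11, fell 7.53-fold from 61.6, 81.7, 65.9 and 72.6 CPM to 9.45, 9.98, 9.02 and 8.96 CPM. The activators MGA1 and PHD1 fell 3.98- and 3.23-fold, and the repressor NRG1 fell 2.51-fold (152 to 177 CPM in F45 and 58.3 to 70.5 CPM in disome XVI), so activators and a repressor of the same gene were lower together. In the filamentation MAPK pathway 5 of 15 fell (33.3%, near the 25% of all ORFs) and 0 rose, with 9 lower under scaling to total counts. SVS1, on chromosome XVI, had the largest fall of the list, a per copy log2 difference of -1.42. TEC1, the transcription factor that DIG1 inhibits together with STE12, fell by a log2 difference of -1.07 ± 0.09 and KSS1, its MAP kinase, 1.70-fold. MSB2, a mucin at the head of the pathway, fell too (350.4 to 484 CPM in F45 and 233 to 307 CPM in disome XVI). The Ste12 element TGAAACA was in 3 of 16 promoters (18.8%; 7.31% of all) and the Tec1 site CATTCC in 1 (6.25%; 10.3% of all).

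In the cAMP and protein kinase A pathway 13 of 19 fell and 2 rose, and 0 were higher under scaling to total counts. PDE2, the high-affinity phosphodiesterase that breaks down cAMP, fell from 404, 466, 419 and 496 CPM to 244, 204, 219.7 and 164 CPM. RGS2 and IRA2, inhibitors of the G protein and of Ras, fell 2.13- and 1.66-fold, and the glucose receptor GPR1 fell 1.52-fold. The largest falls thus included negative and positive parts of the pathway.

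**Figure D2:**
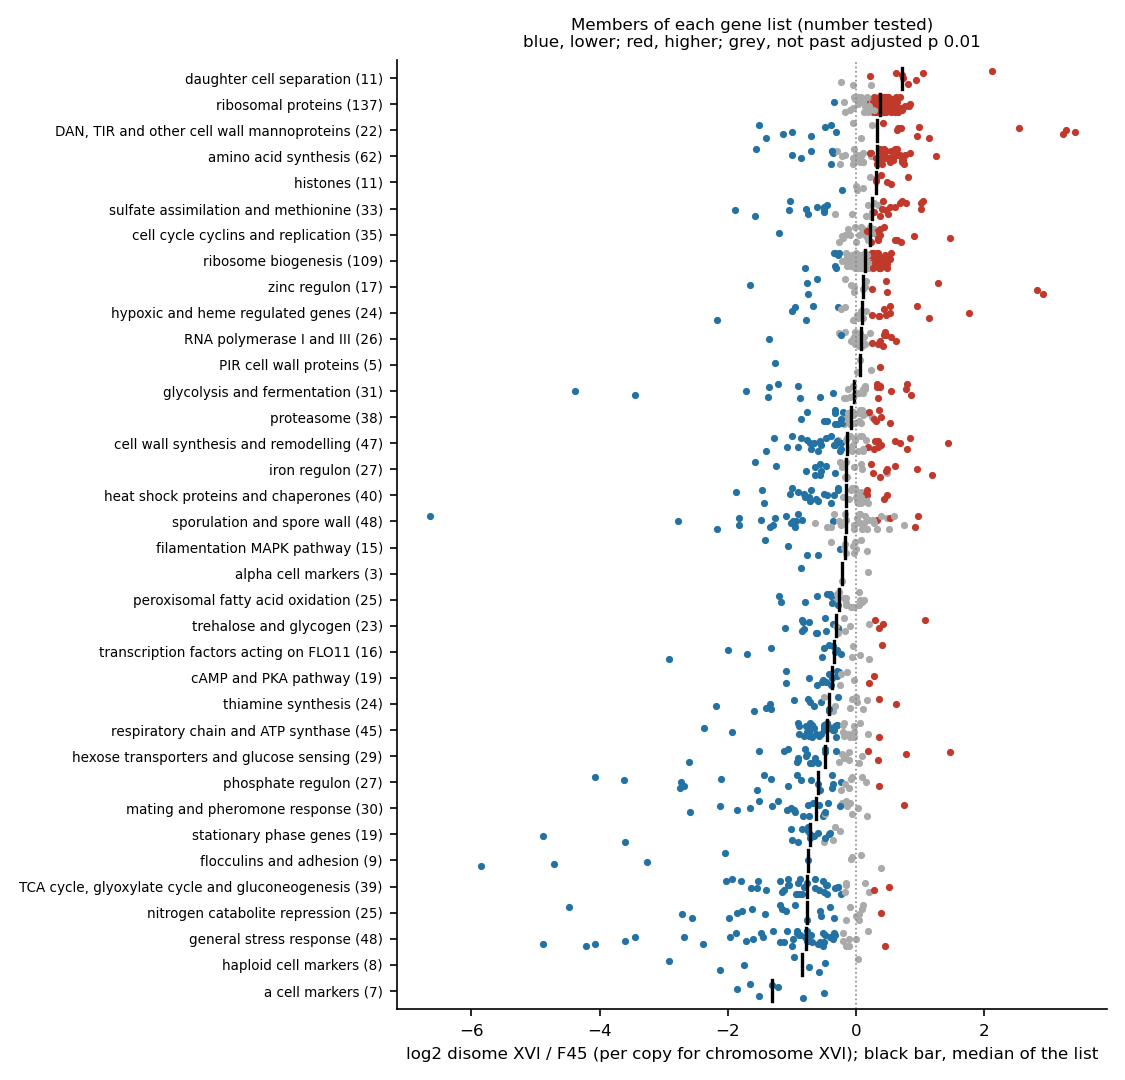
Log2 ratio of disome XVI to F45 (x axis, per copy for genes on chromosome XVI) for each tested member of 36 gene lists, with the number tested in brackets and a black bar at each list's median. Points are blue where lower, red where higher and grey where adjusted p was 0.01 or above; 40 of 48 general stress genes are lower and 111 of 137 ribosomal protein genes are higher.

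Ribosomal protein genes rose by small steps. Of 137 ribosomal protein genes 111 rose and 1 fell, with a median of 0.37 and none past 2-fold. RPS6B rose from 819, 765, 897 and 854 CPM to 1439, 1463, 1454 and 1636 CPM, and RPL37A, RPS26A and RPL9A rose 1.78-, 1.71- and 1.65-fold. Most of these genes have a paralog of near-identical sequence, so single values are uncertain. The summed level of all 137 was 81740 to 87870 CPM in F45 and 112687 to 125710 CPM in disome XVI. That sum is not per copy and includes 11 genes on chromosome XVI, so part of its rise is their extra copy. Ribosome biogenesis, with 37 of 109 higher (33.9%, near the 26.7% of all ORFs) and 7 lower, had a median of only 0.13, and under scaling to total counts 22 were higher. RLP7 and EMG1 rose 1.45- and 1.44-fold, RRP15, on chromosome XVI, had a per copy log2 difference of 0.49 ± 0.08, and DBP2, an RNA helicase, fell 1.74-fold. The PAC and RRPE motifs of this list, GCGATGAG and AAAAATTTT, were in 61 and 73 of its 109 promoters (56% and 67%), beside 4.02% and 7.11% of all. Of the 61 genes with PAC 16 rose and 7 fell, and of the 48 without it 21 rose and 0 fell. Of the 73 genes with RRPE 23 rose and 5 fell, and of the 36 without it 14 rose and 2 fell.

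RNA polymerases I and III had 9 of 26 genes higher (34.6%, also near the 26.7% of all ORFs) and 2 lower. RPA43 and RPC34 rose 1.55- and 1.46-fold, and MAF1, the repressor of RNA polymerase III, fell from 204, 206, 174 and 189.9 CPM to 78.2, 77.5, 73.5 and 72.4 CPM, a 2.56-fold fall. The median of the list was 0.08 and changed sign, to -0.0032, under scaling to total counts. Histones had 6 of 11 higher and 1 lower, led by HTA2 at 1.76-fold. Among cyclins and replication genes 14 of 35 rose and 1 fell, 9 and 5 under scaling to total counts. CLB6, an S phase cyclin, rose 2.77-fold, CLB1, a mitotic cyclin, 1.87-fold and RNR1, of ribonucleotide reductase, 1.63-fold, while CLN3, the earliest G1 cyclin, fell 2.29-fold (315 to 339 CPM in F45 and 107 to 164 CPM in disome XVI).

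Of 11 genes of daughter cell separation 8 rose and 0 fell, with a median of 0.72. After DSE4, SUN4 rose 2.05-fold (66.2 to 72.2 CPM in F45 and 132 to 149 CPM in disome XVI) and DSE2 and DSE3 1.92- and 1.76-fold. The cell wall mannoproteins split, with 11 of 22 higher and 8 lower (50% and 36.4%, beside 26.7% and 25% of all ORFs). Those that rose were DAN1 (2.21-fold), DAN3, DAN4, TIR1, TIR3 and TIR4, best known from cells short of oxygen, with CCW12, SPI1, HPF1, CSS1 and PRY3. Those that fell were TIP1, CWP1, CWP2, CCW14, SED1, YGP1, PRY2 and PST1, with log2 differences from -1.52 to -0.32. Among hypoxic and heme-regulated genes 10 of 24 rose (41.7%, beside 26.7% of all ORFs) and 6 fell (25%, the share of all ORFs). AAC3, the anaerobic ADP/ATP carrier, was 3.38-fold higher and the hypoxic repressor MOT3 2.00-fold lower. Of 47 genes of cell wall synthesis and remodelling 11 rose (23.4%, near the 26.7% of all ORFs) and 21 fell (44.7%, beside 25%). UTR2, a chitin transglycosylase, rose 2.71-fold (138 to 188 CPM in F45 and 379 to 471 CPM in disome XVI), and the wall sensors MTL1 and WSC4 fell, with log2 differences of -1.29 ± 0.20 and -1.07 ± 0.12. Of the 5 PIR wall proteins CIS3 rose 1.29-fold and PIR3 fell 2.39-fold, a share of 20% each way. The median of that list, 0.07, became -0.014 under scaling to total counts.

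Genes of mating type and of spores bear on which cells the pools held. Both strains are labelled MATa, and all 7 a cell markers fell, with a summed level of 661 to 725 CPM in F45 and 258 to 326 CPM in disome XVI and no marker at 0 in either group. MFA2, an a factor gene, fell 3.63-fold (248 to 289 CPM in F45 and 58.7 to 96.3 CPM in disome XVI), and AGA2 and BAR1 fell 3.14- and 2.85-fold. The 4 alpha cell markers summed to 85.6 to 95.6 CPM in F45 and 92.7 to 104 CPM in disome XVI, and 1 of the 3 tested, MF(ALPHA)1 on chromosome XVI, passed per copy as lower, a call lost without F45 replicate 4 (edgeR adjusted p = 0.0107). Haploid markers were 7 of 8 lower, at 184 to 237 CPM summed in F45 and 107 to 113 CPM in disome XVI, with RME1, NEJ1 and FAR1 among them. In mating and pheromone response 21 of 30 fell and 1 rose, led by PRM5 (6.02-fold) and FUS3, the mating MAP kinase (4.36-fold).

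Sporulation and spore wall genes had 17 of 48 lower (35.4%, beside 25% of all ORFs), 4 higher and 27 not called, with a median of -0.16. Beside SPS100, IME1, the inducer of meiosis, fell from 67.4, 65.8, 45.3 and 44.3 CPM to 16.1, 7.45, 14.0 and 11.9 CPM. LDS2 and SPS2 fell at levels near 1 CPM, with 67 and 54 reads over 4 F45 libraries and 12 and 19 in disome XVI, and SPS2 is fused to EGFP in every strain here. The summed level was 1811 to 2154 CPM in F45 and 608 to 673 CPM in disome XVI, but without SPS100 it was 790.2 to 897 CPM and 597 to 663 CPM, so most of the difference was in SPS100. What part cells in other states of mating type or sporulation take in any of these differences was not tested.

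On chromosome XVI, levels followed the extra copy along both arms. Without adjustment for copies 402 of the 472 tested ORFs were higher, 16 lower and 54 not called, and 343 (72.7%) had an estimate within 0.5 of 1 on the log2 scale, where 1 is a 2-fold level. Windows of 25 neighbouring ORFs had medians between 0.76 and 1.25, over 448 windows, and the left and right arms had medians of 0.97 (275 ORFs) and 1.00 (197 ORFs). Estimates below 0 were found for 33 ORFs and above 2 for 10. Chromosome XVI took 7.11 to 7.18% of ORF counts in F45 and 11.8 to 11.9% in disome XVI.

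**Figure D3:**
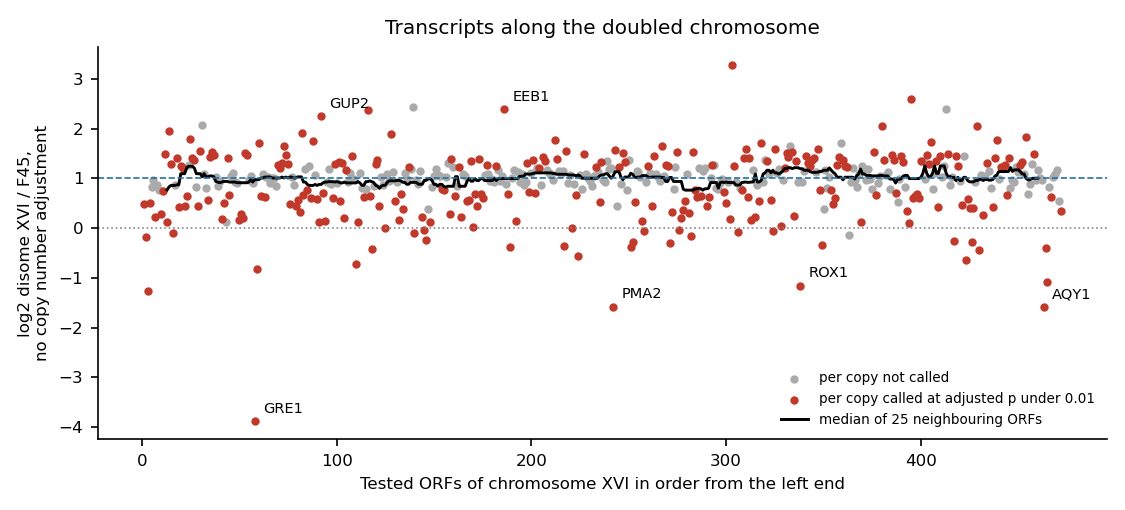
Log2 ratio of disome XVI to F45 without copy adjustment (y axis) for the 472 tested ORFs of chromosome XVI in order from the left end (x axis). Red points were called per copy and grey points were not; the black line, the median of 25 ORFs, stays between 0.76 and 1.25 around the dashed line at 1.

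Per copy, with the 2 copies in the offset, 119 ORFs of chromosome XVI were higher and 141 lower, and 7 and 32 of these by more than 2-fold. The share called was 55.1% on chromosome XVI and 51.4% outside it, and single other chromosomes ranged from 42.9 to 57.8%. The SD of the log2 differences was 0.618 on chromosome XVI and 0.606 outside, with 0.465 to 0.732 on other chromosomes. Of the 141 ORFs lower per copy, 79 were still higher than in F45 in the unadjusted level, 46 were not called and 16 were lower in spite of the extra copy.

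GRE1, a hydrophilin of osmotic and desiccation stress (chromosome XVI, 128632 to 129138), had the largest of these decreases, with 5028, 5198, 3856 and 4332 CPM in F45 and 374, 241, 348 and 283 CPM in disome XVI before division by copies. Per copy it fell 29.6-fold (log2 difference -4.89 ± 0.20, edgeR adjusted p = 1.27e-17). Its neighbour FMP40, a mitochondrial protein AMPylase, fell 3.56-fold per copy. AQY1, an aquaporin best known from spores (chromosome XVI, 921860 to 922777), was at 272, 303, 257 and 282 CPM in F45 and 94.8, 98.3, 98.0 and 77.8 CPM in disome XVI, a per copy fall of 6.01-fold. OPT2, an oligopeptide transporter close to AQY1 at the right end, fell 4.27-fold per copy.

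PMA2, a minor form of the proton pump of the plasma membrane, fell 5.98-fold per copy (474 to 547 CPM in F45 and 144 to 189 CPM in disome XVI, unadjusted), and reads could be shared with its paralog PMA1. HSP32 fell 4.78-fold and has near-identical relatives elsewhere. ROX1, the repressor of hypoxic genes that needs heme (chromosome XVI, 679693 to 680799), was at 277, 329.8, 356 and 336 CPM in F45 and 222, 142, 130.3 and 84.2 CPM in disome XVI, lower than F45 in every library though present in 2 copies. Its per copy log2 difference was -2.16 ± 0.24 (edgeR adjusted p = 2.20e-08), with the widest spread among disome libraries of the 10. OYE3, an NADPH oxidoreductase, SUE1, which acts in the turnover of cytochrome c, and LEE1, a zinc finger protein, fell 3.29-, 3.13- and 2.93-fold per copy.

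The increases per copy were smaller. EEB1, which makes ethyl esters of fatty acids (chromosome XVI, 368071 to 369441), was at 53.8, 59.7, 54.6 and 60.9 CPM in F45 and 278, 320.3, 302 and 302 CPM in disome XVI, 2.63-fold higher per copy (log2 difference 1.39 ± 0.08, edgeR adjusted p = 7.16e-15). GUP2, a membrane protein tied to glycerol uptake, rose 2.39-fold per copy (9.57 to 12.6 CPM in F45 and 52.6 to 57.0 CPM in disome XVI, unadjusted). SET6, a SET domain protein, rose 2.60-fold from only 29 reads over 4 F45 libraries. RAD53, the DNA damage checkpoint kinase, rose 1.85-fold, ACM1, an inhibitor of the anaphase-promoting complex, 1.94-fold, and BBP1, of the spindle pole body, 1.73-fold. DPM1, which makes the mannose donor for protein glycosylation, rose 1.79-fold from 209.6, 205, 224 and 216 CPM to 703, 803, 762 and 792 CPM (unadjusted), and YPR108W-A, TDA6 and YPL199C rose 1.89- to 2.08-fold.

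**Figure D4:**
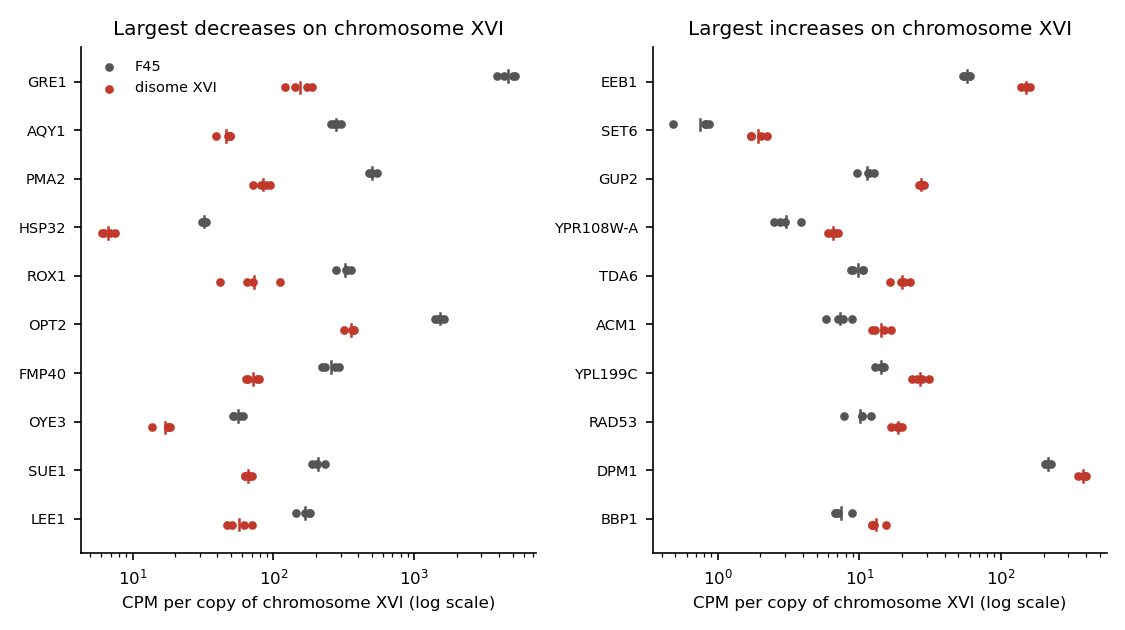
CPM per copy of chromosome XVI (log axis; disome XVI values divided by 2) for the 10 largest decreases and 10 largest increases per copy on chromosome XVI, with a point for each of the 4 F45 (grey) and 4 disome XVI (red) libraries and a bar at each mean. Genes with overlapping groups were not eligible, and GRE1 has the widest gap and ROX1 the widest spread of disome libraries among the decreases.

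Of a chosen list of 37 regulators encoded on chromosome XVI (transcription factors, kinases, cyclins and chromatin factors, which leaves out other regulators there) 20 did not pass the test per copy, 5 were higher and 12 lower. The share lower, 32.4%, was near the 29.9% of all tested ORFs on chromosome XVI, and the share higher was 13.5% beside 25.2%. HRR25, a casein kinase, TAF3, of TFIID, SGV1, a cyclin-dependent kinase, and ARR1, an arsenic-responsive factor, had per copy log2 differences of 0.03 ± 0.06, 0.02 ± 0.06, 0.04 ± 0.05 and 0.04 ± 0.06, none of which passed. TPK2, a catalytic subunit of protein kinase A, was at 142, 150.5, 146 and 131 CPM in F45 and 247, 274, 256 and 255 CPM in disome XVI, and PHO85, a cyclin-dependent kinase of the phosphate pathway, at 124, 126, 125 and 123 CPM and 229, 234, 227 and 229 CPM. Their per copy differences, -0.14 ± 0.06 and -0.12 ± 0.05, did not pass (edgeR adjusted p = 0.0624 and 0.0469).

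After ROX1 the largest decreases on this list were those of SKS1, a kinase of glucose-dependent growth, at 2.59-fold, SMK1, a kinase of spore formation, with few reads (67 in F45 and 86 in disome XVI), AXL1, which marks the axial bud site, at 1.86-fold, RLM1, the transcription factor of the cell wall integrity pathway, at 1.80-fold and CUP9, a repressor of peptide transport, at 1.75-fold. RLM1 was at 69.8, 71.1, 71.2 and 72.3 CPM in F45 and 86.4, 75.8, 84.3 and 67.0 CPM in disome XVI, so 2 copies gave a summed level that overlapped that of 1 copy in F45. RHO1, the GTPase above it, fell 1.48-fold per copy. Also lower were PPQ1, a phosphatase (-0.46 ± 0.09), HAA1, an activator of acid stress genes (-0.24 ± 0.06), and MOT1, a TBP-associated ATPase (-0.28 ± 0.06), all on the per copy log2 scale. The higher members of the list included HOS1, a histone deacetylase (0.44 ± 0.07), SUA7, which is TFIIB (0.42 ± 0.06), and TCO89, of the TOR complex (0.33 ± 0.06). Under scaling to total counts 3 members were higher. FRK1, a protein kinase of chromosome XVI that is not on the list and was picked after its value was seen, fell by 1.10 per copy on the log2 scale. The calls of CLB2 and MED1 (higher) and of HHO1, SMK1 and ISR1 (lower) were lost when single libraries were left out. MED1 lost it without disome XVI replicate 4, ISR1 without F45 replicate 2, SMK1 without F45 replicate 1, 2 or 3 or disome XVI replicate 2 or 3, CLB2 without F45 replicate 1 or 2 or disome XVI replicate 2, 3 or 4, and HHO1 without any library but disome XVI replicate 1.

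Where a list had at least 3 tested members on chromosome XVI, their per copy changes can be set beside those of members elsewhere. The median was lower on chromosome XVI for 12 of 14 such lists and higher for 2. The 3 TCA and gluconeogenesis genes on XVI had a median of -1.04 per copy and the 36 elsewhere -0.70. The 3 chaperone genes on XVI, CUR1 among them (-1.44 ± 0.12), had -0.81 and the 37 elsewhere -0.08. The 11 ribosomal protein genes there had 0.19 and the 126 elsewhere 0.38, while the 9 ribosome biogenesis genes had 0.12 against 0.14. The respiratory chain went the other way, with -0.25 for 4 genes on XVI and -0.49 for 41 elsewhere, as did cell wall synthesis, with -0.04 for 5 and -0.15 for 42. These medians are over few genes and were not tested.

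Noncoding transcripts were lower more often than higher. Of 2153 tested noncoding features, which are transcripts annotated outside ORFs, 163 (7.57%) were higher and 486 (22.6%) lower, 72 and 258 of them by more than 2-fold. The stable unannotated transcripts (SUTs) had 25 of 278 higher and 89 lower, and the XUTs, transcripts that pile up without the exonuclease Xrn1, had 59 of 902 higher and 187 lower. After PWR1 the larger decreases were 4F-238 (chromosome IV, 481963 to 482307), 17.0-fold, and SUT1554.1 (chromosome VII, 111747 to 112155), 15.7-fold from 26.7, 29.6, 32.0 and 35.8 CPM to 1.76, 1.52, 2.99 and 0.597 CPM. MUT84.3 and MUT86.1 lie close together on chromosome II and rose. MUT84.3 rose 11.4-fold with 15 reads over the F45 libraries and 220 over disome XVI. MUT86.1 had 3 reads over the F45 libraries, 2 of which were at 0, and 83 over disome XVI, and its fitted log2 difference of 4.27 became 5.09 without F45 replicate 3.

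SCR1, the RNA of the signal recognition particle, was at 72.1, 59.9, 41.5 and 58.8 CPM in F45 and 349, 456, 356 and 319 CPM in disome XVI, 6.45-fold higher (edgeR adjusted p = 5.88e-12). It is an RNA polymerase III transcript with no long poly(A) tail, in libraries made by poly(A) selection, and the part of that selection in its level was not tested.

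Of 20 tested nonreference genes, which the reference genome lacks, 5 rose and 7 fell. EC1118_1O30_0001g rose 2.47-fold. MAL64 was at 126, 124, 119 and 119.7 CPM in F45 and 247, 256, 245 and 241 CPM in disome XVI, a 2.02-fold level (log2 difference 1.02 ± 0.07, edgeR adjusted p = 2.47e-12). The table gives no chromosome for it, so this value has no copy adjustment. EC1118_1O4_0023g rose 1.92-fold, and the 3 largest decreases, 59A_0034g, 59A_0045g and 59A_0012g, were 1.51- to 1.90-fold.

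Disome XVI was also compared directly with disome XV, with no F45 library in the contrast, over the 4910 tested ORFs outside both chromosomes. There 1045 ORFs (21.3%) were higher and 1074 (21.9%) lower in disome XVI, 126 and 115 of them by more than 2-fold. Among 44 general stress genes outside XV and XVI 30 were lower in disome XVI and 7 higher, and among 113 ribosomal protein genes 101 were lower and 2 higher. Amino acid synthesis had 38 of 51 higher and the phosphate regulon 14 of 22 higher and 2 lower. All 9 histone genes tested were lower. Apart from FLO11, the genes named next were picked from this comparison among called ORFs without overlap between the 2 disomes.

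SPS100 was at 135, 159, 97.4 and 100.1 CPM in disome XV, above every disome XVI library and below every F45 library, and the disome XVI to disome XV difference was -3.39 ± 0.17 on the log2 scale (edgeR adjusted p = 2.87e-15). CTT1, at 1797, 1649, 1069 and 988 CPM in disome XV, and SIP18, at 966, 773, 917 and 869.7 CPM, were lower in disome XVI, with log2 differences of -2.66 and -3.38. SHH4, a relative of a succinate dehydrogenase subunit, was at 267, 272, 295 and 299.7 CPM in disome XV and 22.8, 33.6, 28.6 and 27.9 CPM in disome XVI. DAN1 was at 214, 370.3, 426 and 614 CPM in disome XV and 45.9, 58.5, 60.7 and 85.8 CPM in disome XVI, so the DAN1 level was above F45 in both disomes and highest in disome XV.

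PHO84 was at 217, 215, 136 and 106 CPM in disome XV, lower than in any disome XVI library (log2 difference 2.54 ± 0.15, edgeR adjusted p = 1.10e-13). ARG4, argininosuccinate lyase, was at 72.3, 75.1, 59.0 and 65.6 CPM in disome XV and 422, 617, 505 and 558 CPM in disome XVI, and SNO1, of pyridoxine metabolism, at 3.23, 4.03, 3.44 and 4.26 and 27.6, 34.6, 27.0 and 30.8 CPM. SPR28, a septin of sporulation, was higher in disome XVI by 2.88 on the log2 scale, with 49 reads over the disome XV libraries. YHR214W had only 5 reads over the disome XV libraries, 2 of which were at 0, and 58 over disome XVI, and its fitted difference of 3.08 became 4.39 without disome XV replicate 4. FLO11, at 421, 566, 584 and 564 CPM in disome XV, differed by -0.91 ± 0.22 between the disomes (edgeR adjusted p = 0.00114). For FLO11 the 2 disomes overlapped, as disome XVI replicate 3 was at 541 CPM. The rest of disome XVI was at 177 to 236 CPM.

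**Figure D5:**
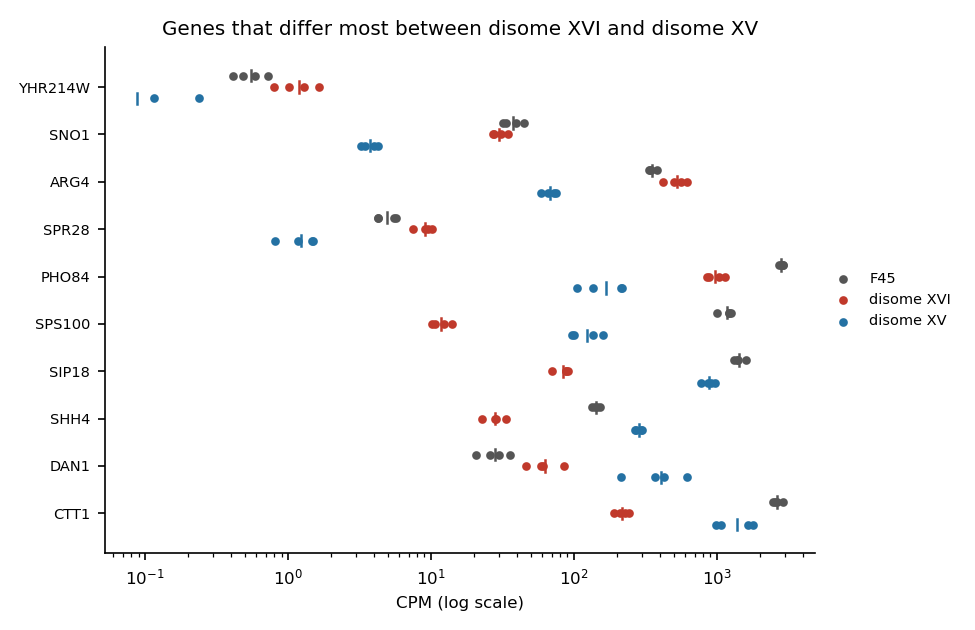
CPM (log axis) of the 5 genes most increased and the 5 most decreased in disome XVI relative to disome XV, in 4 libraries each of F45 (grey), disome XVI (red) and disome XV (blue), with a bar at each mean. YHR214W was at 0 in 2 disome XV libraries, which a log axis leaves out; SPS100, SIP18 and CTT1 are lowest in disome XVI.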

How the data were processed

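RNA from colonies 4 days old was made into stranded poly(A)-selected libraries and sequenced as pairs. Per the submitters' processing notes and the methods, the authors aligned reads with Bowtie2 2.1.0 to R64 with added nonreference genes and spike-ins, and deposited raw counts per feature from featureCounts 1.4.0, counted by strand with no filter on mapping quality, so near-identical genes may share counts. Columns name the strain and a serial number whose meaning the sources used here do not give, and libraries were numbered in its order. Counts of 24 first-batch libraries in 6 groups were fitted together with edgeR 4.0.16 in R 4.3.3 (quasi-likelihood test, prior count 0.125), after filterByExpr left 8097 of 12131 features. Library sizes and TMM factors came from nuclear ORFs, leaving out XV and XVI. An offset of log(2) for features of XVI where it is disomic gave values per copy. P-values were adjusted by Benjamini-Hochberg over all 8097 features, with a threshold of 0.01. Values after ± are standard errors.

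Members and gene lists were chosen with earlier results of these data known. Named genes were the 10 largest changes in each direction outside XVI and on XVI among called ORFs at 1 CPM or more without overlap, the 3 largest of noncoding and nonreference features, the 5 largest against disome XV, the 4 largest changes of each list, all members of the list of XVI regulators (not all regulators there), DIG1 and FLO11. Not every gene so chosen is given in the text. Others (ADH1, AGA1, FRK1, PHO84 in its list, and list members given only by name) were chosen after their values were seen. Alternatives were DESeq2 1.42.0, other scalings and filters, the 8 libraries alone, a replicate block, glmTreat at 1.5-fold and leaving out each library. On simulated counts of 8160 features for this comparison, 63 of 67 changes of 1.5-fold and all 67 of 2-fold were recovered. These changes were placed only in ORFs at 5 CPM or more in F45, so recovery at lower levels was not tested. The second-batch table was not used here. Promoters came from RefSeq R64, for 5867 ORFs.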

Additional observations from a re-analysis of the deposited data

Results flagged for a closer look

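In 82 groups of 4 libraries (the leading genes in each strain), 6 had a library that stood apart from the other 3 by Dixon's criterion, and chance alone sets apart about 1 group in 20. FLO11 was at 541 CPM in disome XVI replicate 3. In the other disome XVI libraries FLO11 was at 177 to 236 CPM. AQY1 was at 77.8 CPM in disome XVI replicate 4, below the rest, and OYE3 at 27.6 CPM in disome XVI replicate 2. BBP1 stood apart in both strains, at 8.87 CPM in F45 replicate 3 and 31.1 CPM in disome XVI replicate 4. SET6 was at 0.483 CPM in F45 replicate 2.

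Levels in disome XVI and disome XV were furthest apart for 10 leading genes. These were picked as the largest called differences without overlap in this same comparison, so passing the direct test is no further result. Of all 4910 ORFs tested there, 21.3% were higher and 21.9% lower in disome XVI. Whether the differences come from the extra chromosomes or from other differences between the strains was not tested. Log2 differences of disome XVI over disome XV were 3.08 for YHR214W, 2.96 for SNO1, 2.95 for ARG4, 2.88 for SPR28 and 2.54 for PHO84. They were -3.39 for SPS100, -3.38 for SIP18, -3.32 for SHH4, -2.72 for DAN1 and -2.66 for CTT1.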

How the results depend on the processing

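Of 415 values of comparisons under an alternative, 401 stayed within 1.5 times the reported count or on the same side of the threshold. With scaling to total counts, the nonreference genes past 2-fold were 1 higher and 1 lower, the chromosome XVI median was 1.87 in place of 1.98, and the median of ORFs outside XVI moved from 0.03 to -0.06 on the log2 scale. Without copy adjustment, XVI had 402 ORFs higher and 16 lower, 230 and 6 of them past 2-fold. Tested against 1.5-fold with glmTreat, 75 ORFs outside XVI were higher and 329 lower, and on XVI 5 and 40, with 4 past 2-fold higher. Leaving out 1 library gave 0 to 1 nonreference genes past 2-fold lower (1 without F45 replicate 1 or disome XVI replicate 3). Outside XVI it gave 1259 to 1403 ORFs higher and 1217 to 1300 lower. With a replicate block 1480 ORFs were higher and 1369 lower outside XVI, and 125 and 142 on it. Libraries share only a number in the column names: their correlations over genes ranged from -0.129 to 0.146, and 2 of 4 correlated best with their own number.

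For 222 results on named genes, 3733 of 3766 values stayed on their side of the threshold, 25 lost and 8 gained a call, and 0 changed direction. Lost calls were those of SMK1, CLB2, HHO1, ISR1, MED1 and MF(ALPHA)1, each without at least 1 single library, HHO1 also with the replicate block. Of 74 list counts, 15 moved over 1.5 times under total counts and 13 when 1 library was left out, the latter all from a count of 5 or fewer. The median of glycolysis changed sign without replicate 1 of F45 or of disome XVI. Genes with few reads are the limit of depth: MUT86.1, MUT84.3, PWR1, LDS2, SPS2, YHR214W, SET6 and YER147C-A had under 30 reads in the lower group.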
